A study of Mus musculus with 9 samples.

Results

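Peroxisomes are the organelles in which liver cells shorten very long, branched and dicarboxylic fatty acids and bile acid precursors. The genes described here are 35 genes of peroxisome biogenesis and peroxisomal oxidation, found in a deposited count table of 55401 genes. They fall into 12 genes of organelle assembly and division, 4 membrane transporters and channels, 7 enzymes of the beta-oxidation core, 5 enzymes for unsaturated chains, 2 carnitine acyltransferases, 3 enzymes of alpha-oxidation and racemisation, and catalase with the peroxisomal protease Lonp2. They were picked by name and role, with earlier results of these data known. The other gene lists and the motifs used below were also chosen with those results known. Shares of these genes set against all tested genes therefore describe sets that were not chosen blind to the data.

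RNA of the left liver lobe was sequenced in 3 groups of 3 mice with QuantSeq, a kit that reads the 3' ends of polyadenylated transcripts, so that each read counts about 1 transcript end. STAM + Atglistatin mice (libraries 4, 5 and 6) were males given 200 µg of streptozotocin, a toxin of insulin-producing cells, under the skin at 2 days of age, and from 4 weeks of age they ate for 4 weeks a high-fat diet containing Atglistatin, an inhibitor of adipose triglyceride lipase. STAM mice (libraries 1, 2 and 3) had the same toxin and the same diet without the inhibitor, and chow mice (libraries 7, 8 and 9) had neither toxin, inhibitor nor high-fat diet. STAM and chow thus differ in toxin and diet at once, and those effects cannot be told apart. The labels give neither the strain, the dose of Atglistatin nor the sex of the chow mice, and the treatment field of the STAM and chow samples contradicts their titles and was not used. The sample values used here also hold no age for the chow mice, so a part of sex or age was not tested.

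Peroxisomal membranes are built by the early peroxins Pex3, Pex16 and Pex19. Matrix enzymes carry targeting signals that the receptors Pex5 and Pex7 recognise, dock at Pex13 and Pex14, and are followed by a round of receptor recycling that needs Pex2, Pex6 and Pex26. Inside, oxidases start beta-oxidation and release hydrogen peroxide, which catalase removes. A bifunctional enzyme and a thiolase then complete each cycle, and the shortened chains leave as carnitine esters or free acids. In rodent liver many of these genes are known targets of PPARa, a nuclear receptor activated by fatty acids, some of which are freed by adipose triglyceride lipase.

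Library totals were 7409090 to 9911855 counts. The test covered 12660 genes, among them 34 of the 35. The exception was Eci3, a paralog of the enoyl-CoA isomerase Eci2, with 0, 1 and 1 counts in STAM + Atglistatin, 7, 0 and 0 in STAM, and 0 in each chow library. Levels below are CPM, the count of a gene scaled to a common library size with TMM factors. Fold changes are log2 values ± SE from edgeR's quasi-likelihood test, and a gene passed at a Benjamini-Hochberg adjusted p under 0.05 over all tested genes. The defining hepatocyte genes were abundant, but 9 of 15 tested ones fell in STAM against chow and 9 of 15 in STAM + Atglistatin against chow, where 1.99% and 1.97% of all tested genes fell. In STAM + Atglistatin against STAM, 1 of the 15 rose and 1 fell, where 1.04% and 0.742% of all tested genes did. The summed level of the hepatocyte genes was 99400 to 105000 CPM in STAM + Atglistatin, 76000 to 87300 in STAM and 128000 to 143000 in chow. The mitochondrial share of counts was 8.61 to 9.69% in STAM + Atglistatin, 10.98 to 11.54% in STAM and 7.28 to 8.74% in chow. The summed adipocyte markers were at 35.9 to 47.6 CPM in STAM + Atglistatin, 175 to 230 in STAM and 11.2 to 47.3 in chow. Of 3 tested markers, 2 were higher in STAM than in chow, where 1.95% of all tested genes were, and Lep was at 0 in every library. The log2 fold changes of the 3 ran from 0.89 to 5.05 in STAM against chow. They ran from -4.78 to -0.43 in STAM + Atglistatin against STAM, so the sum does not speak for each marker. The part of these marker levels and mitochondrial shares in the results below was not tested. Among chow libraries, number 7 differed most, with proliferation markers at 159 CPM against 55.1 and 66.4, and with the lowest summed level of the 35 genes.

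STAM against chow asked what the diabetic, high-fat-fed liver changed. A small set of peroxisomal genes was higher in STAM. Pex11a, the peroxisome division peroxin induced by fatty acids, rose 1.91-fold, the thiolase Acaa1b rose 1.79-fold, and Decr2, a reductase for unsaturated chains, rose 1.67-fold. The second thiolase Acaa1a and the dienoyl-CoA isomerase Ech1 rose 1.53-fold and 1.36-fold. Of the 34 tested, 5 rose and 0 fell, or 14.7% and 0%, where 1.95% and 1.99% of all tested genes were higher and lower (3.94% in either direction). At an unadjusted p under 0.05, 11 were higher and 2 lower, where 7.24% and 7.31% of all tested genes were. DESeq2 called 7 higher and 0 lower, and 2.82% and 2.64% of all tested genes. The median log2 fold change of the 34 was 0.18, against 0.00 for all tested genes. The 3 STAM values lay above every chow value for 16 of the 34 and below for 1, where 10.6% and 10.1% of all tested genes did so (20.7% in either direction). In bulk tissue, fewer cells of a type and less RNA per cell cannot be told apart.

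STAM + Atglistatin against STAM asked what the inhibitor changed within the model. The genes that were raised in STAM had fold changes near 1 here: 1.15 for Pex11a, 1.14 for Acaa1b, 1.07 for Ech1, 0.952 for Decr2 and 0.835 for Acaa1a, none of which passed. Of the 34 tested, 1 rose, Abcd2, a transporter of very long chain fatty acids, by 1.90-fold, and 0 fell, where 1.04% and 0.742% of all tested genes were higher and lower (1.79% in either direction). At an unadjusted p under 0.05, 3 were higher and 5 lower, where 5.09% and 5.06% of all tested genes were. DESeq2 called 2 higher and 1 lower, and 1.39% and 1.05% of all tested genes. The 3 STAM + Atglistatin values lay above every STAM value for 4 of the 34 and below for 6, where 8.56% and 8.45% of all tested genes did so (17% in either direction). The median log2 fold change was -0.03, against 0.00 for all tested genes.

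STAM + Atglistatin against chow asked which differences from the healthy liver were present under the inhibitor. Pex11a rose 2.19-fold, Acaa1b 2.04-fold, Decr2 1.59-fold and Ech1 1.46-fold, and the carnitine acetyltransferase Crat rose 1.74-fold. Of the 34 tested, 5 rose and 0 fell, where 2.10% and 1.97% of all tested genes were higher and lower (4.08% in either direction). The 3 STAM + Atglistatin values lay above every chow value for 8 of the 34 and below for 3, where 9.58% and 9.03% of all tested genes did so (18.6% in either direction). At an unadjusted p under 0.05, 8 were higher and 1 lower, where 7.46% and 7.36% of all tested genes were. DESeq2 called 6 higher and 0 lower, and 2.88% and 2.51% of all tested genes. This comparison shares its chow libraries with STAM against chow, so the 4 genes that passed in both, Pex11a, Acaa1b, Decr2 and Ech1, do not pass independently. At the authors' adjusted p under 0.05, their deposited table held 7 of the 35 genes higher in STAM than in chow. It held 1 higher and 1 lower in STAM + Atglistatin than in STAM, and 6 higher in STAM + Atglistatin than in chow. Eci3 had no adjusted p there. The share of all genes called in that table was not computed, so these counts cannot be set against a background.

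**Figure D1:**
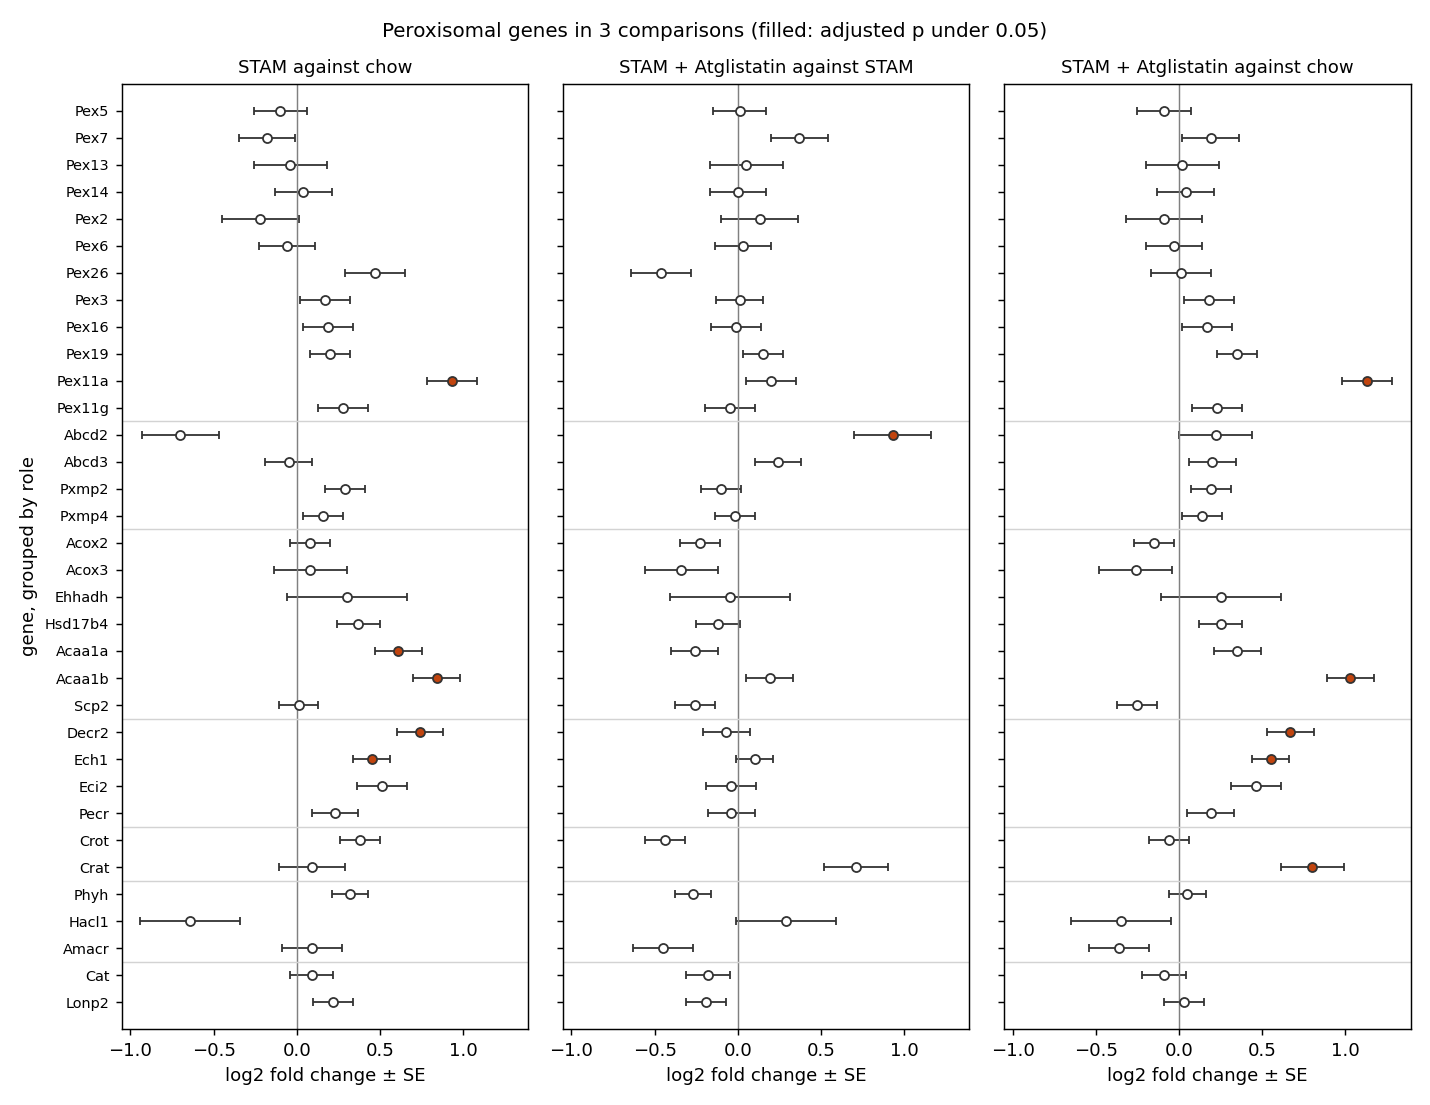
Log2 fold change ± SE (x axis) of the 34 tested genes (y axis, grouped by role) in STAM against chow, STAM + Atglistatin against STAM and STAM + Atglistatin against chow, with filled points for genes that passed at an adjusted p under 0.05. The 5, 1 and 5 filled points all lie to the right of 0, and Pex11a is the farthest right in both comparisons with chow.

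Among the 12 biogenesis genes, Pex11a was the one that passed. It stood at 420, 549 and 382 CPM in STAM + Atglistatin, at 378, 329 and 472 in STAM and at 191, 210 and 216 in chow. Every library of both STAM groups lay above every chow library, and the STAM groups overlapped. The log2 fold change was 0.93 ± 0.15 in STAM against chow (edgeR adjusted p = 0.00101), 0.20 ± 0.15 in STAM + Atglistatin against STAM (adjusted p = 0.765, 95% interval -0.12 to 0.51) and 1.13 ± 0.15 in STAM + Atglistatin against chow (adjusted p = 0.000166). Pex11a lies on chromosome 7 of GRCm38 (79735957 to 79743131, minus strand) and shares no exon bases with another annotated gene. Its paralog Pex11g, also a division factor, was at 61.0 to 88.5 CPM in STAM + Atglistatin, 68.3 to 81.2 in STAM and 58.5 to 63.7 in chow, and did not pass in any comparison.

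The other biogenesis genes had smaller differences. Pex26, the membrane anchor of the receptor recycling complex, was at 22.6, 27 and 26.0 CPM in STAM + Atglistatin, at 41.2, 33.1 and 30.0 in STAM and at 23.5, 29.2 and 22.3 in chow. Its STAM values lay above those of both other groups without overlap, but the log2 fold changes of 0.47 ± 0.18 against chow (edgeR adjusted p = 0.196) and of -0.46 ± 0.18 in STAM + Atglistatin against STAM (adjusted p = 0.320) did not pass. Pex19, the chaperone that brings membrane proteins to the peroxisome, was at 104, 117 and 118 CPM in STAM + Atglistatin, 99.8, 97.1 and 108 in STAM and 89.5, 88.8 and 87.8 in chow, with a log2 fold change of 0.35 ± 0.12 in STAM + Atglistatin against chow (edgeR adjusted p = 0.141). Pex7, the receptor of the second targeting signal, had 35.9, 37.2 and 54.4 CPM in STAM + Atglistatin, against 31.7, 34.3 and 32.6 in STAM (log2 fold change 0.37 ± 0.17, edgeR adjusted p = 0.482). For the remaining 8, Pex5, Pex13, Pex14, Pex2, Pex6, Pex3, Pex16 and Pex11g, no comparison reached an unadjusted p of 0.05. The matrix receptor Pex5 averaged 39.6 ± 5.69 CPM in STAM + Atglistatin, 39.3 ± 2.65 in STAM and 42.1 ± 4.30 in chow (SD, n = 3 each), and its 95% interval in STAM + Atglistatin against STAM ran from -0.32 to 0.34.

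Pex11a had the highest fold change among these genes in STAM against chow. The thiolase pair Acaa1b and Acaa1a also rose there, as did Decr2 and Ech1, whose windows are not shown. In STAM + Atglistatin against STAM, the log2 fold change was 0.20 for Pex11a, 0.19 for Acaa1b and -0.26 for Acaa1a, and none passed. Promoter windows are shown for Pex11a, Acaa1b and Acaa1a. They are RefSeq windows of 300 bases (GRCm38.p6), 5′ to 3′ on the strand of each gene, which is minus for Pex11a (chr7:79743082-79743381), minus for Acaa1b (chr9:119157044-119157343) and plus for Acaa1a (chr9:119341044-119341343). The RefSeq start site equals the GENCODE gene start for Pex11a and Acaa1b, but for Acaa1a it lies 1618 bases inside the GENCODE gene, so that window is not at the outermost annotated start. Capitals mark the letters CCAAT on either strand, a motif picked after the sequences had been read. Each thiolase window holds 4 matches, of which a pair in Acaa1b shares bases, and the Pex11a window holds none.
Pex11a: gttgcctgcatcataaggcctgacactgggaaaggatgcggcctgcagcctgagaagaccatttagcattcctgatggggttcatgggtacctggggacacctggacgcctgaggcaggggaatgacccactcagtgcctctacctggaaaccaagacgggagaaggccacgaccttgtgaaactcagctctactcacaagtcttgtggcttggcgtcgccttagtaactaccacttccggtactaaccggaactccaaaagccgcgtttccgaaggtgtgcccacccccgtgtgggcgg
Acaa1b: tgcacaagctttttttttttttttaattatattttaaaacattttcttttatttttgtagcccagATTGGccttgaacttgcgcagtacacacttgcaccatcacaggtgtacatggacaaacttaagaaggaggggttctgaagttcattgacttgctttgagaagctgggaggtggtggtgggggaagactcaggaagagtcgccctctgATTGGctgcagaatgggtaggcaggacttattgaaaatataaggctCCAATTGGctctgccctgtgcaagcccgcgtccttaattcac
Acaa1a: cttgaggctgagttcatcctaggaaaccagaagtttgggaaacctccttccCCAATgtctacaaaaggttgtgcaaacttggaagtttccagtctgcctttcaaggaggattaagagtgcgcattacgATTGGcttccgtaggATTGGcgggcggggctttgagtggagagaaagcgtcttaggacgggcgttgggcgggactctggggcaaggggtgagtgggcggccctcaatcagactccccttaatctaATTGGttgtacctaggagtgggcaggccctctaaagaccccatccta
CCAAT was found in 14 of 34 windows of 28 of the genes, and in 37.41% of all 32851 promoter windows. The direct repeat of AGGNCA with 1 base between its copies, a form of the element that PPARa binds with its partner RXR, was searched on both strands. It had 0 matches in those 34 windows, against 0.38% of all windows. At so low a share, 0 matches in 34 windows cannot set these genes apart from others. Sequence outside the 300 bases was not searched, so the genes cannot be said to lack the element. The letters AGGTCA, a form of 1 copy in that repeat and so contained in some of its matches, were searched on both strands. They were present in 4 of the 34 windows, those of Cat, Pex11g, Phyh and Scp2, against 16.26% of all windows. The RefSeq start site of the Scp2 window lies 26451 bases inside the GENCODE gene, far from its outermost annotated start. Those of the Eci2 window (32952 bases) and of a Lonp2 window (27526 bases) also lie far inside. A match describes the letters in a window and no binding was measured.

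Of the 4 membrane genes, Abcd2 was the one that passed. It had 16.7, 19.7 and 19.9 CPM in STAM + Atglistatin, 7.73, 10.8 and 11 in STAM and 17.2, 18.4 and 12.4 in chow. The STAM libraries lay below all others, and STAM + Atglistatin overlapped chow. The log2 fold change was 0.93 ± 0.23 in STAM + Atglistatin against STAM (edgeR adjusted p = 0.0460), -0.70 ± 0.23 in STAM against chow (adjusted p = 0.117, not passed) and 0.22 ± 0.22 in STAM + Atglistatin against chow (adjusted p = 0.730). The call is a weak one: it was lost without any one of the 6 libraries of the 2 groups and when raw totals replaced the TMM factors (edgeR adjusted p = 0.0582 to 0.292, with a lowest value of 0.0157 over 11 alternatives). Abcd2 lies on chromosome 15 (91145871 to 91191799, minus strand).

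Abcd3, which carries long chain and branched acyl-CoA and bile acid precursors into the peroxisome, had 835, 880 and 834 CPM in STAM + Atglistatin, 692, 711 and 750 in STAM, and 564, 813 and 848 in chow. Both of the STAM groups differed from each other without overlap, while chow library 7 lay far below the other chow libraries, and no comparison passed. The pore protein Pxmp2 averaged 240 ± 25.8 CPM in STAM + Atglistatin, 257 ± 19.3 in STAM and 210 ± 16.4 in chow (SD, n = 3 each), with a log2 fold change of 0.29 ± 0.12 in STAM against chow (edgeR adjusted p = 0.277). Pxmp4, another peroxisomal membrane protein, was at 132 to 147 CPM in STAM + Atglistatin, 130 to 158 in STAM and 122 to 134 in chow.

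In the beta-oxidation core, the 2 thiolase genes that cleave straight chains passed, and the oxidases and bifunctional enzymes did not. Acaa1b had 2650, 3070 and 2690 CPM in STAM + Atglistatin, 2320, 2080 and 2990 in STAM and 1250, 1570 and 1310 in chow. All 6 libraries of the STAM groups lay above the chow libraries. The log2 fold change was 0.84 ± 0.14 in STAM against chow (edgeR adjusted p = 0.00106), 0.19 ± 0.14 in STAM + Atglistatin against STAM (adjusted p = 0.750, 95% interval -0.10 to 0.47) and 1.03 ± 0.14 in STAM + Atglistatin against chow (adjusted p = 0.000163).

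Acaa1a had 159, 142 and 172 CPM in STAM + Atglistatin, 176, 177 and 215 in STAM and 106, 139 and 126 in chow. The 3 groups did not overlap, with STAM highest and chow lowest. It rose by 0.61 ± 0.14 in STAM against chow (edgeR adjusted p = 0.0139), a call lost without STAM library 3 (0.51, adjusted p = 0.0899; lowest over 11 alternatives 0.000987), and had 0.35 ± 0.14 in STAM + Atglistatin against chow (adjusted p = 0.214) and -0.26 ± 0.14 in STAM + Atglistatin against STAM (adjusted p = 0.562). Both lie on chromosome 9, Acaa1b at 119148023 to 119157093 on the minus strand and Acaa1a at 119339676 to 119350299 on the plus strand. In the last 300 bases of their longest coding transcripts, 40.2% of the 50-base words of Acaa1a also occur in Acaa1b, and 20.7% of those of Acaa1b in Acaa1a. The labels do not say where a read matching both copies was counted, so the values of both are uncertain. Acaa1a also shares exon bases with Myd88, and Acaa1b with Dlec1, on the opposite strand. No source says whether counting used strand.

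Of the other core enzymes, Hsd17b4, the bifunctional enzyme for branched chains and bile acid precursors, had 190, 230 and 275 CPM in STAM + Atglistatin, 258, 250 and 246 in STAM and 177, 195 and 211 in chow. STAM lay above chow without overlap, and the log2 fold change of 0.37 ± 0.13 did not pass (edgeR adjusted p = 0.176). Scp2, the thiolase and sterol carrier of the branched chain route, had 514, 589 and 603 CPM in STAM + Atglistatin, 704, 633 and 708 in STAM and 618, 678 and 733 in chow. Its STAM + Atglistatin libraries lay below those of both other groups, with log2 fold changes of -0.26 ± 0.12 against STAM (edgeR adjusted p = 0.426) and -0.25 ± 0.12 against chow (adjusted p = 0.320), and 79.3% of the words of its 3' end also occur in the annotated Scp2-ps2, so its counts are uncertain.

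Acox2, the oxidase of bile acid precursors, was at 112 to 137 CPM in STAM + Atglistatin, 149 to 153 in STAM and 141 to 145 in chow, with no overlap between any 2 groups and no comparison that passed. Acox3, an oxidase of branched chains, was at 16.2 to 18.9 CPM in STAM + Atglistatin, 16.0 to 29.4 in STAM and 19.6 to 22.1 in chow. Ehhadh, the bifunctional enzyme of straight and dicarboxylic chains, varied widely among libraries, with 19.7, 36.3 and 74.6 CPM in STAM + Atglistatin, 68.0, 29.4 and 37.4 in STAM and 26.9, 44.4 and 38.4 in chow. Its coefficient of variation was 64.6% in STAM + Atglistatin, 45.4% in STAM and 24.3% in chow, and the 95% interval of its log2 fold change in STAM against chow ran from -0.46 to 1.06, a range that includes both 0 and the log2 fold change of Pex11a.

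**Figure D2:**
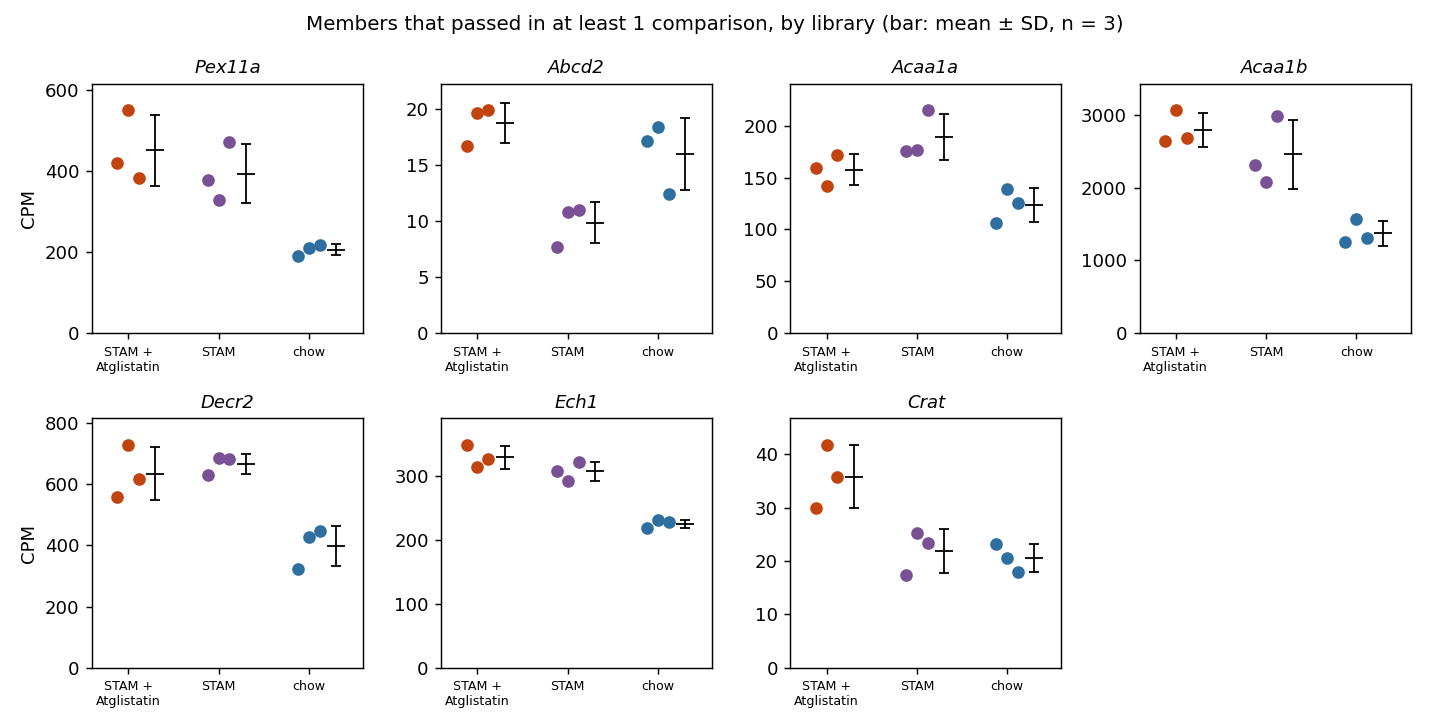
CPM (y axis, from 0) in each library of STAM + Atglistatin, STAM and chow (x axis, 3 points each) for the 7 genes that passed in at least 1 comparison, with black bars for mean ± SD (n = 3). In Pex11a, Acaa1b, Decr2 and Ech1 both STAM groups lie above chow, in Abcd2 the STAM libraries lie below the others, and in Crat the STAM + Atglistatin libraries lie above the others.

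Of the 4 tested enzymes for unsaturated chains, 2 rose in both STAM groups against chow, Decr2 and Ech1. Decr2, the peroxisomal dienoyl-CoA reductase (chromosome 17, 26081208 to 26090337, minus strand), had 558, 727 and 615 CPM in STAM + Atglistatin, 629, 685 and 683 in STAM and 324, 427 and 445 in chow. Its log2 fold change was 0.74 ± 0.14 in STAM against chow (edgeR adjusted p = 0.00289), -0.07 ± 0.14 in STAM + Atglistatin against STAM (adjusted p = 0.928) and 0.67 ± 0.14 in STAM + Atglistatin against chow (adjusted p = 0.00685, and 0.0591 without STAM + Atglistatin library 5, with a lowest value of 2.97e-05 over 11 alternatives). Of the words of its 3' end, 10.4% also occur in other genes.

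Ech1, the dienoyl-CoA isomerase (chromosome 7, 28825217 to 28832247, plus strand), had 349, 314 and 327 CPM in STAM + Atglistatin, 309, 293 and 322 in STAM and 219, 231 and 228 in chow. It rose by 0.45 ± 0.11 in STAM against chow (edgeR adjusted p = 0.0258) and by 0.55 ± 0.11 in STAM + Atglistatin against chow (adjusted p = 0.00609), with 0.10 ± 0.11 in STAM + Atglistatin against STAM (adjusted p = 0.848). The call in STAM against chow was lost without any one STAM library or without chow library 8 or 9 (edgeR adjusted p = 0.0611 to 0.106, with a lowest value of 0.00107 over 11 alternatives).

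Eci2, the enoyl-CoA isomerase, had 312, 273 and 295 CPM in STAM + Atglistatin, 318, 282 and 307 in STAM and 158, 247 and 234 in chow. Neither comparison with chow passed: 0.51 ± 0.15 for STAM (edgeR adjusted p = 0.0661) and 0.46 ± 0.15 for STAM + Atglistatin (adjusted p = 0.101), although all 6 libraries of the STAM groups lay above chow and DESeq2 called it in both (adjusted p = 0.0225 and 0.0499, in ranges of 0.00752 to 0.238 and 0.0177 to 0.282 over 11 alternatives). Pecr, the trans-2-enoyl-CoA reductase, was at 389 to 590 CPM in STAM + Atglistatin, 449 to 532 in STAM and 378 to 444 in chow. Summed over the 5 genes of this role, libraries held 1810, 1760 and 1630 CPM in STAM + Atglistatin, 1710, 1740 and 1840 in STAM and 1080, 1350 and 1330 in chow.

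Of the 2 carnitine acyltransferases, Crat passed in 1 comparison. Crat, which moves acetyl and other short groups onto carnitine (chromosome 2, 30400471 to 30415813, minus strand), had 29.9, 41.7 and 35.8 CPM in STAM + Atglistatin, 17.3, 25.2 and 23.3 in STAM and 23.2, 20.6 and 17.9 in chow. Every STAM + Atglistatin library lay above every other library. Crat rose by 0.80 ± 0.19 in STAM + Atglistatin against chow (edgeR adjusted p = 0.0249), a call lost without STAM + Atglistatin library 5 or 6 or chow library 8 or 9 (adjusted p = 0.0598 to 0.145, with a lowest value of 0.00416 over 11 alternatives). In STAM + Atglistatin against STAM it had 0.71 ± 0.19 (edgeR adjusted p = 0.0921), which passed in DESeq2 (adjusted p = 0.0460, in a range of 0.0315 to 0.454 over 11 alternatives), and in STAM against chow 0.09 ± 0.20 (adjusted p = 0.909). Crat shares exon bases with Dolpp1 and Gm16323 on the other strand.

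Crot, the octanoyltransferase that exports medium chains shortened in the peroxisome, had 292, 255 and 297 CPM in STAM + Atglistatin, 437, 378 and 333 in STAM and 292, 288 and 299 in chow. STAM lay above both other groups without overlap. Its log2 fold change was -0.44 ± 0.12 in STAM + Atglistatin against STAM (edgeR adjusted p = 0.0954) and 0.38 ± 0.12 in STAM against chow (adjusted p = 0.104). Neither passed here, while DESeq2 called both (adjusted p = 0.0206 and 0.0401, in ranges of 0.0206 to 0.499 and 0.0401 to 0.431 over 11 alternatives).

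**Figure D3:**
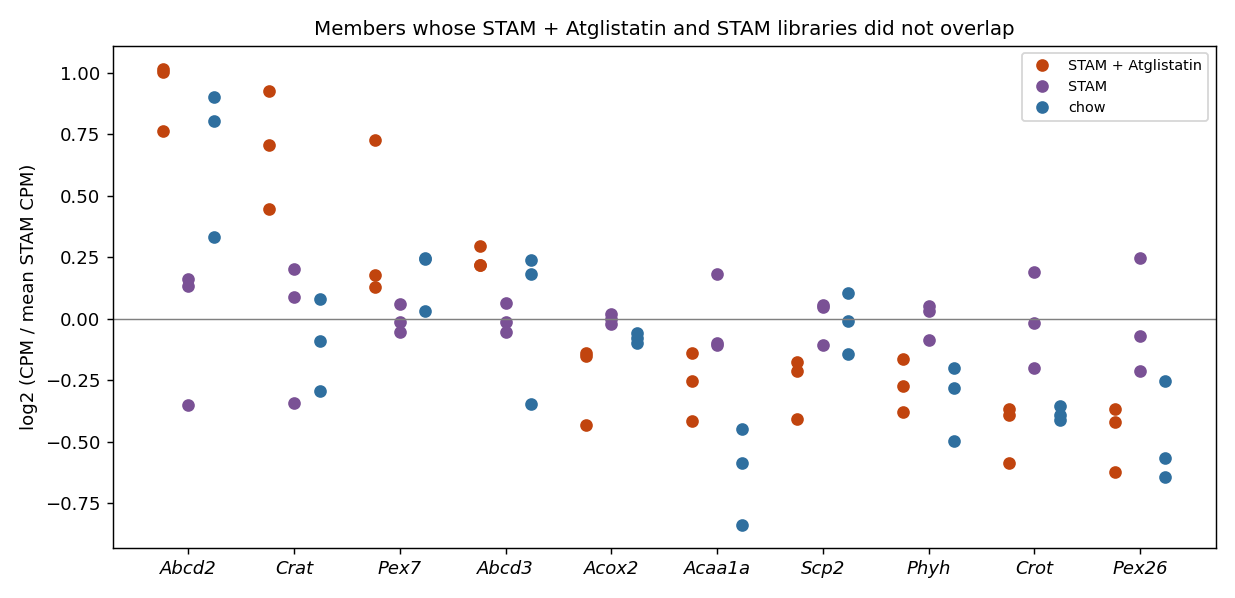
Log2 of CPM over the mean CPM of STAM (y axis) for the 10 genes (x axis) whose STAM + Atglistatin and STAM libraries did not overlap, with 3 points for each of STAM + Atglistatin, STAM and chow. In Abcd2, Crat, Pex7 and Abcd3 the STAM + Atglistatin points lie above STAM, and in the other 6 they lie below it. Of the 10, Abcd2 passed in this comparison. The genes shown were picked by this separation, which 17% of all tested genes had in either direction.

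Phyh, the hydroxylase that starts alpha-oxidation of phytanic acid, had 1540, 1430 and 1660 CPM in STAM + Atglistatin, 1930, 1900 and 1750 in STAM and 1320, 1620 and 1530 in chow. STAM again lay above both other groups without overlap, and neither 0.32 ± 0.11 in STAM against chow (edgeR adjusted p = 0.156) nor -0.27 ± 0.11 in STAM + Atglistatin against STAM (adjusted p = 0.387) passed. Hacl1, the lyase of the same route, had 43.7, 41.9 and 91.4 CPM in STAM + Atglistatin, 35.2, 35.6 and 73.9 in STAM and 55.1, 92.5 and 78.2 in chow, with a log2 fold change of -0.64 ± 0.30 in STAM against chow (edgeR adjusted p = 0.335). In each STAM group 1 library lay far above the other pair. Hacl1 shares exon bases with Gm49387 on the same strand and Btd on the other.

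Amacr, the racemase that prepares branched chains and bile acid precursors, had 86.4, 118 and 151 CPM in STAM + Atglistatin, 180, 143 and 161 in STAM and 118, 164 and 175 in chow, with a log2 fold change of -0.45 ± 0.18 in STAM + Atglistatin against STAM (edgeR adjusted p = 0.362). Catalase (Cat) averaged 2180 ± 215 CPM in STAM + Atglistatin, 2470 ± 210 in STAM and 2320 ± 375 in chow (SD, n = 3 each). Its 95% intervals were -0.18 to 0.37 in STAM against chow and -0.45 to 0.09 in STAM + Atglistatin against STAM. Lonp2 averaged 258 ± 23.3 CPM in STAM + Atglistatin, 295 ± 10.6 in STAM and 253 ± 22.4 in chow (SD, n = 3 each), and no comparison of either gene reached an unadjusted p of 0.05.

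Summed over all 35 genes, the libraries held 12300, 12500 and 12400 CPM in STAM + Atglistatin, 12800, 12100 and 13700 in STAM and 8890, 11000 and 10700 in chow. All 6 libraries of the STAM groups lay above the chow libraries, and the STAM groups overlapped. The role groups did not share 1 pattern: the sums of biogenesis, beta-oxidation core and unsaturated chain genes were higher in both STAM groups than in chow without overlap, while the carnitine acyltransferase and alpha-oxidation sums of STAM lay above those of both other groups. A sum weighs abundant genes most. Without Pex11a, the other 11 biogenesis genes summed to 525, 530 and 525 CPM in STAM + Atglistatin, 520, 490 and 531 in STAM and 456, 496 and 481 in chow, so that STAM overlapped chow and STAM + Atglistatin did not. This sum was chosen after the values were seen.

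**Figure D4:**
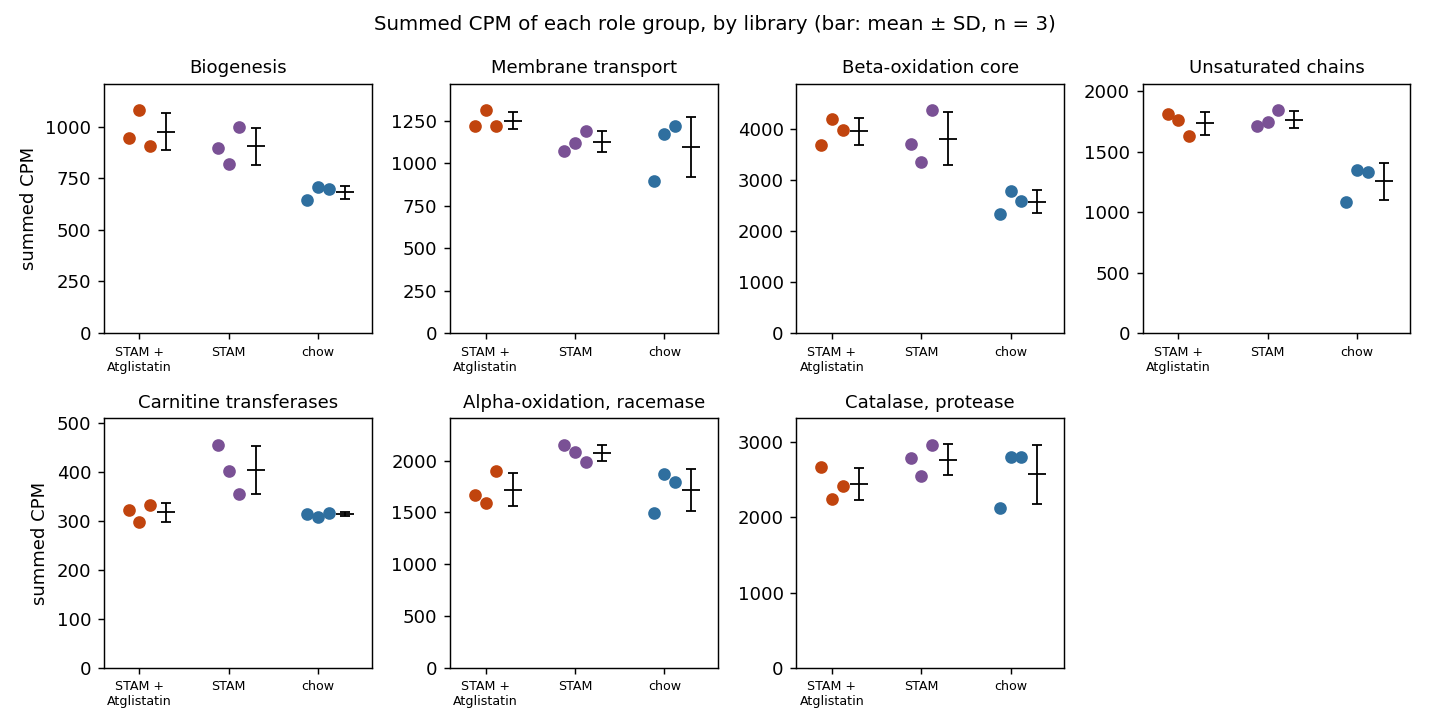
Summed CPM (y axis, from 0) of each role group in every library of STAM + Atglistatin, STAM and chow (x axis, 3 points each), with black bars for mean ± SD (n = 3). Chow library 7 has the lowest sum in 6 of the 7 panels, and the STAM libraries stand highest in the carnitine transferase and alpha-oxidation panels.

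A list of 58 other genes, taken as coding for peroxisomal proteins, was also read, and 55 of them were tested. It is wider than peroxisomal oxidation and holds genes of other routes, among them the mevalonate kinases Pmvk and Mvk. In STAM against chow, 6 rose and 3 fell (10.9% and 5.45%, against 1.95% and 1.99% of all tested genes). In STAM + Atglistatin against STAM, 3 rose and 1 fell (5.45% and 1.82%, against 1.04% and 0.742%). In STAM + Atglistatin against chow, 5 rose and 2 fell (9.09% and 3.64%, against 2.10% and 1.97%). Without chow library 7, 4 were higher and 5 lower in STAM against chow, where 2.68% and 2.86% of all tested genes were. The median log2 fold changes were 0.05, 0.01 and 0.08. The acyl-CoA thioesterase Acot3 had 80.8, 93.8 and 73.8 CPM in STAM + Atglistatin, 17.0, 18.9 and 41.5 in STAM and 5.04, 9.99 and 5.16 in chow, with log2 fold changes of 1.93 ± 0.32 in STAM against chow (edgeR adjusted p = 0.00105), 1.68 ± 0.28 in STAM + Atglistatin against STAM (adjusted p = 0.00207) and 3.62 ± 0.32 in STAM + Atglistatin against chow (adjusted p = 1.17e-06). Acot4, a thioesterase of dicarboxylic chains, rose by 1.32 ± 0.21 in STAM against chow (edgeR adjusted p = 0.000801) and by 2.13 ± 0.21 in STAM + Atglistatin against chow (adjusted p = 4.98e-06). Both belong to a family of similar genes, so reads matching several of them make the values uncertain.

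Other genes of that list moved with different roles. Gstk1, a glutathione transferase, rose by 0.74 ± 0.13 in STAM against chow (edgeR adjusted p = 0.00185), and Hsdl2, a dehydrogenase of the short chain family, by 0.81 ± 0.14 in STAM + Atglistatin against chow (adjusted p = 0.00177). Pmvk and Mvk, kinases of the mevalonate route to sterols, fell by 2.22 ± 0.20 and 1.5 ± 0.30 in STAM against chow (edgeR adjusted p = 1.73e-06 and 0.00554), and Paox, a polyamine oxidase, by 1.08 ± 0.21 (adjusted p = 0.00520). In STAM + Atglistatin against STAM, Pmvk rose by 1.66 ± 0.20 and the coenzyme A hydrolase Nudt19 by 0.71 ± 0.16 (edgeR adjusted p = 7.57e-05 and 0.0317). Nudt7, another coenzyme A hydrolase, fell by 0.63 ± 0.15 there (edgeR adjusted p = 0.0442), and by 1.04 ± 0.15 in STAM + Atglistatin against chow (adjusted p = 0.000463). Hao1, the glycolate oxidase, fell by 0.53 ± 0.14 in STAM + Atglistatin against chow (edgeR adjusted p = 0.0440).

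Of 14 genes of PPARa and its partners, 0 passed in any of the 3 comparisons by edgeR, where 3.94%, 1.79% and 4.08% of all tested genes passed in either direction. At an unadjusted p under 0.05, 2 were higher and 1 lower in STAM against chow (7.24% and 7.31% of all tested genes). There were 0 and 1 in STAM + Atglistatin against STAM (5.09% and 5.06%). In STAM + Atglistatin against chow there were 0 and 0 (7.46% and 7.36%). With shares this low, so few genes cannot be set apart from all tested genes. Ppara itself had 167, 183 and 162 CPM in STAM + Atglistatin, 192, 203 and 209 in STAM and 105, 180 and 195 in chow, with log2 fold changes of 0.33 ± 0.17 in STAM against chow (edgeR adjusted p = 0.397) and -0.24 ± 0.17 in STAM + Atglistatin against STAM (adjusted p = 0.745). Its STAM + Atglistatin libraries lay below those of STAM. The transcript level of a receptor does not measure its activity.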

How the data were processed

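The deposited table holds counts of reads per gene for 9 libraries. Per the labels' protocols, the authors made QuantSeq 3' libraries sequenced on an Illumina HiSeq, and STAR and GRCm38 are named in the submitters' processing notes. The counting tool, annotation and use of strand are not stated. The authors' deposited log2 fold changes and adjusted p-values, whose tool is not stated, were used only where named. The 7 ribosomal rows that name no gene (0.26 to 0.529% of counts) were left out. The 9 libraries were fitted together with edgeR 4.0.16 (R 4.3.3; TMM, filterByExpr, quasi-likelihood test, no covariate), with Benjamini-Hochberg adjustment over 12660 genes, and the script was tested on simulated data. Replicate error is the spread between 3 libraries a group, and p-values measure that spread only. The alternatives were DESeq2 1.42.0, 2 other scalings, no count filter, fits of the 2 groups compared and leaving out each library. Positions are from GENCODE on GRCm38, and promoter windows from RefSeq. All 35 genes are accounted for: those that passed, or are paired by role with one that passed, are given by library, and of the other peroxisomal genes the 3 with the smallest p in each direction are named. The members, lists and motifs were chosen with earlier results of these data known. Protein sequences were not used here.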

Additional observations from a re-analysis of the deposited data

How the results depend on the processing

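No paired analysis was possible because the groups share no replicate numbers. In STAM against chow, 5 of the genes were higher, 8 with library totals and 3 to 5 when 1 library was left out (3 without STAM library 3), and 0 were lower, but 1 without the count filter (Hacl1, -0.64). In STAM + Atglistatin against STAM, 1 was higher, 0 with library totals, 2 without the count filter, 2 with DESeq2 and 0 without any 1 library, and 0 were lower, but 1 without the filter and 1 with DESeq2 (Crot). Of all tested genes, the share higher was 1.04%, 1.03% with library totals, 0.984% without the filter and 1.39% with DESeq2. It was 0.558 to 0.908% when 1 library was left out. The share lower was 0.742%, 0.916% without the filter and 1.05% with DESeq2. In STAM + Atglistatin against chow, 5 were higher, and 3 to 5 when 1 library was left out (3 without STAM + Atglistatin library 5). Of all tested genes, 2.10% were higher there. The share was 1.25 to 2.88% when 1 library was left out (1.35% without STAM + Atglistatin library 5). Of the other peroxisomal genes, 6 were higher and 3 lower in STAM against chow, and 4 and 5 without chow library 7, an alternative chosen after seeing the data. Without that library, 2.68% of all tested genes were higher and 2.86% lower. When 1 library was left out, the Decr2 log2 fold change in STAM + Atglistatin against STAM ran from -0.18 to 0.01 and that of Crat in STAM against chow from -0.02 to 0.24, so neither has a settled sign. Library totals moved the median of all genes by 0.085 in STAM against chow and 0.078 in STAM + Atglistatin against chow, and split all calls into 347 higher and 205 lower and 359 higher and 184 lower, against 247 and 252 and 266 and 250 with TMM. Of 65 log2 fold changes not given singly, 36 changed sign in at least 1 of 11 alternatives and 0 passed in any. With 3 libraries a group, Ehhadh had one of the widest 95% intervals, -0.46 to 1.06 in STAM against chow.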
